A study of Mus musculus with 30 samples.

Results

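Hearts of mice labelled as having a cardiac specific CPT1a knockout were compared with floxed control hearts, both after sham surgery and so without pressure overload. The comparison holds 8 of the 30 libraries of the series, chosen by genotype and treatment labels. The 4 FF_sham libraries come from mice whose label gives the floxed Cpt1a genotype, and the 4 KO_sham libraries from mice labelled as knockouts. All 8 hearts were collected 8 weeks after the sham operation. In the same cohort, 4 FF_TAC and 4 KO_TAC hearts, of the same genotypes, had transverse aortic constriction (TAC, which narrows the aorta and loads the left ventricle). They entered the statistical fit and are used once for a side-by-side reading. The recombinase, the promoter that drives it, the deleted exons, the ages of the mice and any pooling are not given in the sources used here. Replicates are taken as separate hearts from their labels, and nothing else says how far they were independent. Each p-value therefore measures the spread between libraries. In the statistical fit that spread was taken over all 16 libraries of the cohort, the TAC hearts included.

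Carnitine palmitoyltransferase 1 sits on the outer mitochondrial membrane and joins long-chain fatty acids to carnitine, the step that admits them to the mitochondrion for beta-oxidation. Malonyl-CoA inhibits it. Cpt1a encodes the isoform best known from liver, whereas Cpt1b encodes the isoform that predominates in adult heart muscle, a tissue that draws most of its ATP from fatty acids. A knockout driven in heart muscle cells would leave Cpt1a in the other cells of the heart. All cells in the tissue sampled contribute to a library.

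Total counts ran from 16470938 to 20734227 over the 8 libraries, and mitochondrial transcripts made up 21.6% to 26.0% of them. Levels are given as CPM, a gene's counts relative to the library's total count, with totals scaled by TMM (trimmed mean of M values). The library labelled KO_sham 2 stood apart from the other 7. Its haemoglobin transcripts summed to 1.40 CPM (without TMM scaling) against 384 to 678 CPM, and its 13 immediate early genes (transcribed within minutes of a stimulus) to 4913 CPM against 286 to 366 CPM. Heart muscle markers were abundant in every library, with 8 genes summing to 59236 to 70118 CPM in FF_sham and 61382 to 63619 CPM in KO_sham. Tissue from outside the ventricle was uneven. Atrial markers summed to 5418 CPM in FF_sham 2, 3264 CPM in KO_sham 2 and 1496 CPM in KO_sham 4, against 23.4 to 381 CPM in the other 5, and fat markers to 287.7 CPM in FF_sham 2 against 0.18 to 30.2 CPM elsewhere.

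The libraries also differed in base composition. Genes were sorted into 20 bins by transcript GC content. The median log2 level of the GC-richest bin minus that of the poorest, each centred over the libraries of the cohort, was 0.24, 0.07, 0.12 and 0.08 in FF_sham 1 to 4 and −0.18, −0.15, −0.07 and −0.08 in KO_sham 1 to 4. The groups did not overlap, and the two-sided exact permutation test gave p = 0.0286, the smallest that 4 against 4 can reach. Genes with every KO_sham library below every FF_sham library had a median transcript GC content of 55.0%, and those with every KO_sham library above, 44.8%, against 49.7% over all genes tested. The part of this shift in the results below was tested only by a fit with an offset for GC content in each library, whose values stand beside the list counts, and beside the gene differences of over 0.15, that it moves by over 1.5 times. Over all genes tested, it took the number with an unadjusted p under 0.05 from 434 to 358 higher and from 380 to 258 lower with all 4 libraries, and from 357 to 348 and from 376 to 238 without KO_sham 2.

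Cpt1a itself was examined first. The gene (ENSMUSG00000024900) lies on the plus strand of chromosome 19 at 3322334 to 3385733 in the GENCODE annotation of GRCm38. Its level was 37.8, 43.9, 52.7 and 45.9 CPM in FF_sham 1 to 4, and 22.5, 46.3, 20.3 and 23.7 CPM in KO_sham 1 to 4. The library labelled KO_sham 2 lay inside the control range, at 103% of the control mean, and the other 3 KO_sham libraries lay below all 4 controls. With all 4 libraries, KO_sham held 28.2 ± 12.1 CPM and FF_sham 45.1 ± 6.14 CPM (SD, n = 4 each). The log2 difference was −0.68 (SE 0.32), with an adjusted p of 0.950 by edgeR's quasi-likelihood test. With sham libraries alone in the fit, the SE was 0.24. A two-sided exact permutation test of the 4 against 4 values gave p = 0.114.

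Without KO_sham 2, the mean was 22.2 ± 1.68 CPM (SD, n = 3), or 49.1% of the control mean, and the log2 difference −1.03 (SE 0.31). Leaving out that library was decided by its Cpt1a level, so this second difference describes the libraries and is no test of the knockout. The deposited values are counts of the whole gene, to which exons outside the deleted part would still contribute, so they do not measure how much functional transcript was left. Both comparisons are drawn on from here on, with 4 KO_sham libraries and with 3. The difference of a single gene is often given from only 1 of them, which can be the larger of the 2.

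The genes beside Cpt1a did not move with it as a block. Of 10 neighbours, 5 on each side, 4 were abundant enough to test, and 3 of them lay between −0.12 and 0.03 (log2, 4 against 4). The other was Tesmin, a gene best known from testis. It held 3.61, 3.82, 4.84 and 3.02 CPM in FF_sham 1 to 4 and 1.98, 2.25, 2.13 and 1.41 CPM in KO_sham 1 to 4, a log2 difference of −0.97 (SE 0.40, unadjusted p 0.0269 in edgeR). All 4 knockout libraries lay below the controls, the library labelled KO_sham 2 included.

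Among the other genes of the carnitine shuttle, Crat gave the clearest separation. It encodes carnitine acetyltransferase, which moves acetyl groups between CoA and carnitine. Its level was 567, 583, 512 and 622 CPM in FF_sham 1 to 4 and 436, 445, 466 and 401 CPM in KO_sham 1 to 4, with no overlap (3.55% of all genes had every knockout below every control), and the log2 difference was −0.39 (SE 0.12, unadjusted p 0.00668). Crat shares exon sequence with Dolpp1 on the opposite strand. Because the strand setting of the authors' counting is not given in the sources used here, such genes are uncertain.

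Cpt2, which reverses the carnitine linkage inside the mitochondrion, held 214, 245, 207 and 247 CPM in FF_sham and 211, 175, 196 and 149 CPM in KO_sham, with overlapping ranges. Its log2 difference was −0.32 (SE 0.14, unadjusted p 0.0323), or −0.30 without KO_sham 2 and −0.16 without KO_sham 4 as well, and it no longer had an unadjusted p under 0.05 with the GC offset. Cpt1b held 10.9, 10.8, 12.4 and 10.2 CPM in the controls and 6.69, 11.7, 7.03 and 9.56 CPM in KO_sham, so that KO_sham 2 again lay with the controls. Its difference was −0.34 (SE 0.40), and it shares exons with Gm44502 on the same strand, which may have taken reads from it. The remaining members overlapped between the groups with all 4 libraries. Slc25a20, the carrier that exchanges acylcarnitine for carnitine, differed by −0.23, the plasma membrane carnitine transporter Slc22a5 by −0.26 (−0.13 without FF_sham 2), Slc22a4 by 0.06, Crot by 0.01 and Cpt1c by −0.08.

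**Figure D1:**
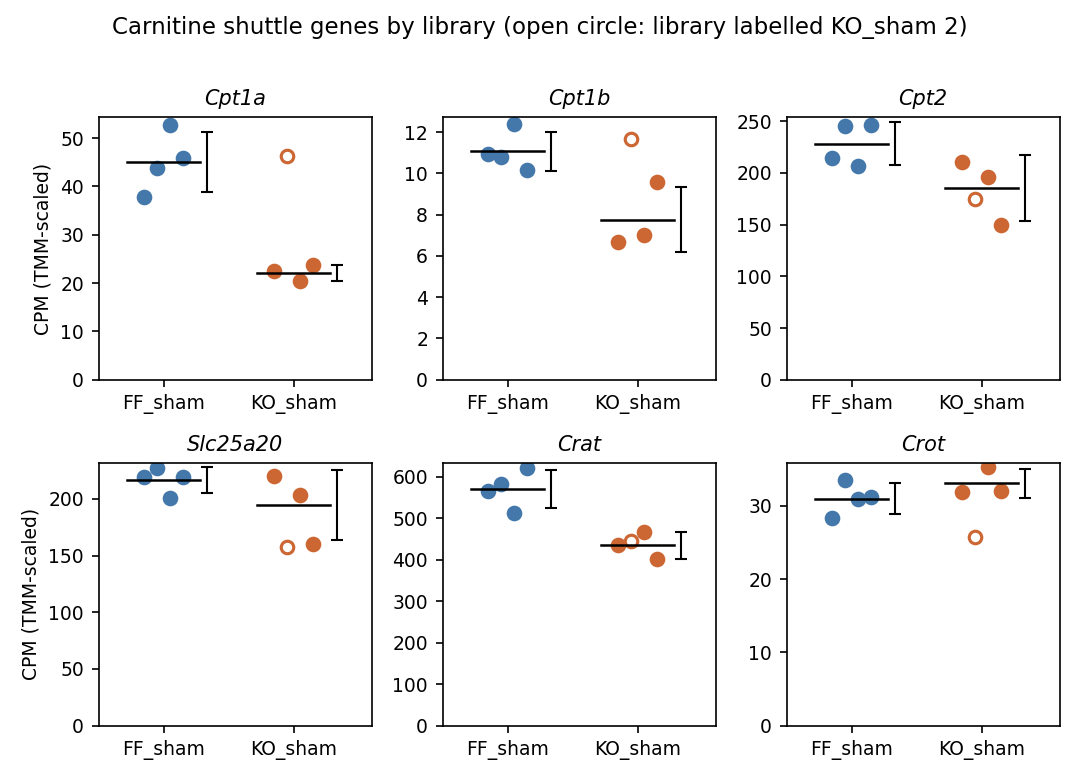
Levels of 6 carnitine shuttle genes in each sham library (y axis, CPM from 0, TMM-scaled; x axis, group). Each circle is a library, the open circle is the library labelled KO_sham 2, lines are means and bars SDs, taken over the 3 filled circles in KO_sham. Cpt1a of the open circle is 46.3 CPM, inside the control range, while all 4 KO_sham values of Crat lie below the controls.

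Across the transcriptome no gene passed the threshold. Of 15596 genes tested with all 4 KO_sham libraries, edgeR called 0 (0%) at an adjusted p under 0.05, and 814 (5.22%) had an unadjusted p under 0.05: 434 higher (2.78%) and 380 lower (2.44%). Without KO_sham 2 it called 0 of 15919 (0%). An unadjusted p under 0.05 was then found for 733 (4.6%), with 357 higher (2.24%) and 376 lower (2.36%). Of these genes, 501 were shared by both fits. The count without KO_sham 2 was 373 when KO_sham 1 was left out too, and the count with all 4 was 511 without FF_sham 1.

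Other tools called a few genes. With all 4 libraries DESeq2 called 6 higher (0.0386%) and 9 lower (0.0579%), and limma voom with sample weights 12 higher (0.0769%) and 18 lower (0.115%). Both called 1 gene higher, Lyz2, and 5 lower. The DESeq2 shares are of all genes with a p, but DESeq2 gave some of these no adjusted p. With all 4 libraries Cpt1a, Mrc1, Fcrls and Ms4a7 were among them, so DESeq2 could not call them. The genes it called higher included Fos, Fosb and Cxcl2. Of these, Fos and Cxcl2 were high only in KO_sham 2, at 611 and 53.2 CPM. Without KO_sham 2 DESeq2 called 23 higher (0.145%) and 15 lower (0.0948%), and voom 125 higher (0.785%) and 113 lower (0.71%), of which 21 and 15 were shared. The 23 included Il6 (adjusted p 3.5e-07 in DESeq2), which was near 0 in every sham library of that comparison, at no more than 0.10 CPM. Genes are therefore described by their values in each library and their unadjusted p. Counts of list members with an unadjusted p under 0.05 stand against the share of all genes in that direction. That share was 2.78% higher and 2.44% lower with all 4 libraries, and 2.24% and 2.36% without KO_sham 2. It is not repeated beside most counts.

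Most macrophage markers, 10 of 14, lay above all controls in KO_sham 1, 3 and 4, as 6.12% of all genes did, and some of them in KO_sham 2 as well. Macrophages are the main resident immune cell of the heart. They take up debris and dying cells and produce the C1q proteins of complement. Mrc1, the mannose receptor, held 17.2, 29.8, 24.5 and 26.8 CPM in FF_sham 1 to 4 and 52.2, 35.9, 37.1 and 39.6 CPM in KO_sham 1 to 4. All 4 knockout libraries lay above all 4 controls, as in 3.23% of all genes, and the log2 difference was 0.75 (SE 0.18, unadjusted p 0.0007, adjusted p 0.798 in edgeR). C1qa, a chain of C1q, held 38.3, 36.1, 41.2 and 38.7 CPM in the controls and 83.3, 46.5, 58.7 and 57.1 CPM in KO_sham, also without overlap (0.67, SE 0.19). Fcrls, an Fc receptor-like gene of mouse macrophages and microglia, held 5.25, 6.81, 6.66 and 7.77 CPM against 19.2, 7.84, 12.96 and 13.1 CPM (1.003, SE 0.24). Ms4a7, a membrane protein of macrophages, held 1.41, 2.45, 2.50 and 2.47 CPM against 9.22, 2.98, 5.67 and 4.91 CPM (1.37, SE 0.34). In all 4 genes the library labelled KO_sham 2 was the lowest of the knockouts and KO_sham 1 the highest.

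In other macrophage genes KO_sham 2 fell among the controls. C1qc held 31.4, 38.3, 37.6 and 40.0 CPM in FF_sham and 72.2, 37.2, 55.7 and 51.2 CPM in KO_sham. Lyz2, which encodes lysozyme, held 86.7, 142, 106 and 124 CPM in FF_sham and 313, 123, 217 and 174 CPM in KO_sham. For Cd68, a lysosomal protein of phagocytes, the levels were 6.23, 7.69, 7.69 and 10.1 CPM in FF_sham and 19.7, 10.1, 13.4 and 14.0 CPM in KO_sham. Without KO_sham 2 the log2 differences were 0.70 for C1qc (SE 0.13, unadjusted p 7.5e-05), 1.03 for Lyz2 (SE 0.19, unadjusted p 8e-05) and 0.98 for Cd68 (SE 0.18, unadjusted p 7e-05). Each carried an adjusted p of 0.183 in edgeR. Ctss, the lysosomal protease cathepsin S, and Clec12a, a myeloid lectin, reached 1.27 (SE 0.25) and 1.46 (SE 0.28) in that comparison. With all 4 libraries the differences were 0.56 for C1qc, 0.85 for Lyz2, 0.85 for Cd68, 1.05 for Ctss and 1.19 for Clec12a.

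Over the 14 macrophage markers, 9 had an unadjusted p under 0.05 and a level above the controls with all 4 libraries, none a level below, and the median log2 difference was 0.70 against 0.004 over all genes. Without KO_sham 2 the count was 11, the median 0.79 against −0.005, and 10 of the 14 had every knockout library above every control (6.12% of all genes). Of the 14, voom called 11 higher without KO_sham 2 (0.785% of all genes), DESeq2 5 (0.145%), and edgeR none (0%). Summed over the list, macrophage markers reached 294, 429, 360 and 405 CPM in FF_sham 1 to 4 and 811, 416, 602 and 543 CPM in KO_sham 1 to 4. The library labelled KO_sham 2 lay inside the control range and the other 3 above it, at 1.75 times the control mean. In RNA of heart tissue, more cells of a type and more RNA per cell cannot be told apart.

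Not all macrophage markers shared this pattern. Lyve1, a marker of resident heart macrophages that lymphatic endothelium also expresses, held 14.7 to 19.1 CPM in FF_sham and 12.4 to 25.8 CPM in KO_sham, with a log2 difference of 0.15. Timd4, a receptor for dying cells on resident macrophages, differed by 0.47 (0.26 without KO_sham 2) and Cd163, a haemoglobin scavenger receptor, by 0.32, and both overlapped between groups. Ccr2, the chemokine receptor of monocytes, held 1.16, 9.92, 3.19 and 2.77 CPM in FF_sham and 16.4, 2.07, 11.4 and 8.36 CPM in KO_sham. Its difference was 1.16 with all 4 libraries and 1.49 without KO_sham 2 (unadjusted p 0.043), with FF_sham 2 inside the knockout range. The GC offset left these results near where they were, with a list median of 0.73 with all 4 libraries and 0.87 without KO_sham 2, and the same counts of 9 and 11.

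**Figure D2:**
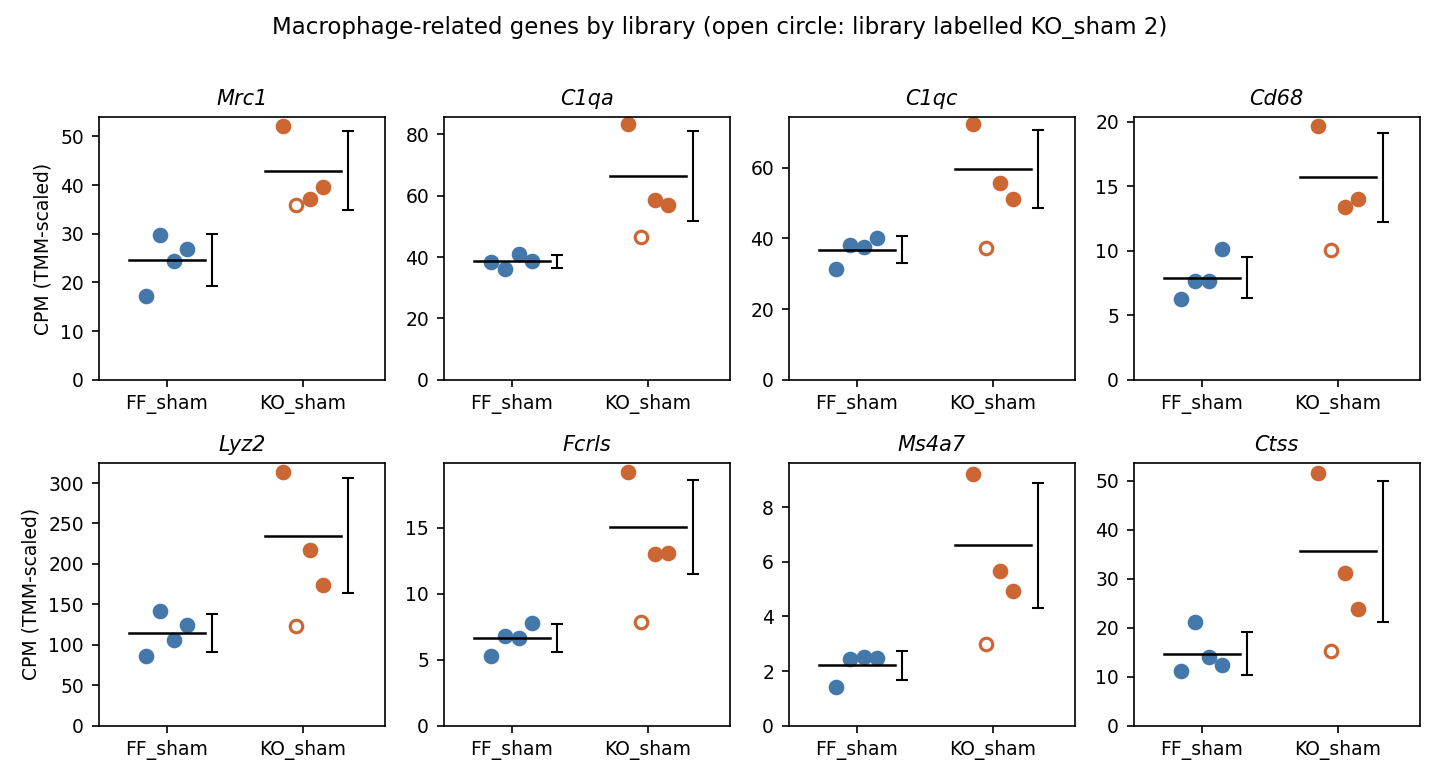
Levels of 8 macrophage-related genes in each sham library (y axis, CPM from 0, TMM-scaled; x axis, group), with symbols, means and SDs as in the plot of carnitine shuttle genes. The 3 filled KO_sham circles lie above all controls in every panel, and the open circle (KO_sham 2) is the lowest KO_sham circle in each.

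Promoters of 4 of these genes are shown because the genes moved together, and are the 250 bases before the RefSeq start (GRCm38.p6), written 5′ to 3′ along the gene's strand. Macrophage genes are known for GGAA-type sites of the factor PU.1. The letters AGGAAGT, on either strand, are in capitals where they occur.
Mrc1, chr2:14229164-14229413, plus strand: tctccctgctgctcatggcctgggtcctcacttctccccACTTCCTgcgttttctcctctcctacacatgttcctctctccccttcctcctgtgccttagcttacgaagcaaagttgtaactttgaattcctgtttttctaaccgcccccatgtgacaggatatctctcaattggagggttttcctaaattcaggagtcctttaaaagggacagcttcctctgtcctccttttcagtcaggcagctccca
C1qc, chr4:136892915-136893164, minus strand: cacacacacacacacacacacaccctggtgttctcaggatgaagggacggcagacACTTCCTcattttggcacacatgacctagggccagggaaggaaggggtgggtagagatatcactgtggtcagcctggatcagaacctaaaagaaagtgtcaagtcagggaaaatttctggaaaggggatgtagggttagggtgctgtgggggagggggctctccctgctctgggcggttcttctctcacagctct
Lyz2, chr10:117282273-117282522, minus strand: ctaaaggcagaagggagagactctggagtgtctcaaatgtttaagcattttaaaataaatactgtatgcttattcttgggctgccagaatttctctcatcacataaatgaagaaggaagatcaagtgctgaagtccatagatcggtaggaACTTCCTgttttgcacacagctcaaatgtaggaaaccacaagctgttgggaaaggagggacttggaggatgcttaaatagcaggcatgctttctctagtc
Cd68, chr11:69666171-69666420, minus strand: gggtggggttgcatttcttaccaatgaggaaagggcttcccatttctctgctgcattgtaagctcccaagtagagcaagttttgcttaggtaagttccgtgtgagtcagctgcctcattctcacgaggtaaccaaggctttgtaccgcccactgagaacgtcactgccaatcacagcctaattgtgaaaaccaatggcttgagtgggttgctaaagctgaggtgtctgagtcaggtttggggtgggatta
Of the 14 macrophage markers, 10 had a promoter in the table, and 5 of the 10 held AGGAAGT (Mrc1, C1qb, C1qc, Fcgr1 and Lyz2), against 7.69% of 32851 promoters of this length. The longer GAGGAAGT, which contains it, was in 1 of the 10 (C1qc) and in 2.44% of all promoters, and GAGGAAG, which overlaps both, in 3 of the 10 and in 10.6%. Cd68 held none of them, although it differed as much as the others. A match says only that these letters are there.

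Genes of antigen presentation on MHC class II, which display peptides to T cells and are made by macrophages, dendritic cells and B cells, were examined next. Cd74, the invariant chain, held 66.8, 153, 110 and 99.4 CPM in FF_sham 1 to 4 and 271, 128, 193 and 193 CPM in KO_sham 1 to 4. H2-Eb1 held 25.7, 60.4, 44.5 and 34.8 CPM against 123, 50.2, 78.7 and 75.8 CPM. KO_sham 2 lay inside the control range for both, and the other 3 above it. Without it the differences were 1.02 for Cd74 (SE 0.37, unadjusted p 0.0147) and 1.16 for H2-Eb1 (SE 0.38, unadjusted p 0.008), with H2-Aa at 1.06 and H2-Ab1 at 1.004. With all 4 libraries Cd74 lay at 0.87, H2-Eb1 at 0.99, H2-Aa at 0.89 and H2-Ab1 at 0.84. Of 12 presentation genes, 4 had an unadjusted p under 0.05 with all 4 libraries (2.78% of all genes) and 5 without KO_sham 2 (2.24%), all higher. The list also holds genes outside class II, such as H2-K1, H2-D1 and B2m. With all 4 libraries 9 of the 12 had a positive difference and 3 a negative one, and without KO_sham 2 these were 7 and 5. Every knockout lay above every control in 0 of the 12 with all 4 libraries (3.23% of all genes). Without KO_sham 2 this held for 6 (6.12%). B cell markers summed to 10.1 to 15.1 CPM in FF_sham and 16.4 to 21.9 CPM in KO_sham 1, 3 and 4. KO_sham 2 was the lowest library, at 5.05 CPM, and none of the 6 markers tested had an unadjusted p under 0.05. The same held for the 3 tested T and natural killer cell markers and the 16 interferon-stimulated genes (median 0.15 without KO_sham 2). Of 3 neutrophil genes tested, Csf3r, the G-CSF receptor, differed by 0.96 without KO_sham 2 (unadjusted p 0.0072).

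Of 30 extracellular matrix genes, 13 lay above all controls in KO_sham 1, 3 and 4 (6.12% of all genes did), and 4 in all 4 knockouts (3.23%). Summed, the list reached 2319 to 2738 CPM in FF_sham and 3507, 2816, 2620 and 3239 CPM in KO_sham 1 to 4, so that KO_sham 3 lay inside the control range. Col3a1, a fibrillar collagen of scar and vessel walls, held 217, 278, 278 and 219 CPM in FF_sham and 653, 143, 343 and 421 CPM in KO_sham. KO_sham 2 was here the lowest library of all 8. The log2 difference was 0.65 with all 4 libraries (SE 0.32), 0.28 without KO_sham 1 and 0.93 without KO_sham 2 (SE 0.23, unadjusted p 0.00132). KO_sham 1 was thus the library that raised it most and KO_sham 2 the one that lowered it most. Tnc, encoding tenascin C, a matrix protein that the adult heart makes after injury, held 0.86, 1.31, 1.54 and 0.86 CPM in FF_sham and 13.4, 1.46, 5.67 and 3.29 CPM in KO_sham. That gave 2.70 without KO_sham 2 (SE 0.50, unadjusted p 9.3e-05) and 1.96 without KO_sham 1 as well. Tnc shares exon sequence with a gene on the opposite strand.

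Timp1, an inhibitor of matrix metalloproteinases, held 1.04, 4.58, 2.16 and 1.79 CPM in FF_sham and 16.2, 4.01, 8.85 and 5.80 CPM in KO_sham. Col8a1, a short-chain collagen, held 14.4, 16.1, 20.1 and 11.1 CPM against 37.3, 25.6, 23.5 and 24.1 CPM, so all 4 knockouts lay above all controls. Lox, which crosslinks collagen, held 2.02, 3.38, 2.85 and 2.22 CPM against 7.15, 4.80, 4.06 and 4.02 CPM, again without overlap (0.93, SE 0.33, unadjusted p 0.012), and the fibrillar collagen Col5a2 lay at 0.53 (SE 0.21), or 0.34 without KO_sham 1. Lox also shares exon sequence with an opposite-strand gene. Of the 30, 10 had an unadjusted p under 0.05 with all 4 libraries (median 0.37) and 9 without KO_sham 2 (median 0.44), all higher. Fibroblast markers, summed, were 1942 to 2199 CPM in FF_sham and 1834 to 2500 CPM in KO_sham 1, 3 and 4. KO_sham 2 was the highest library, at 2814 CPM. The groups overlapped, and 1 of 7 markers had an unadjusted p under 0.05 in each comparison (0 with the GC offset and all 4 libraries). With the GC offset 8 matrix genes with all 4 libraries and 10 without KO_sham 2 had an unadjusted p under 0.05.

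Acute response genes were highest in the library labelled KO_sham 2, by wide margins. Fos, the type member of the immediate early genes, held 1.04 to 4.80 CPM in FF_sham, 611 CPM in KO_sham 2 and 1.72 to 3.23 CPM in the other knockouts. Il1b, a cytokine of activated phagocytes, held 0.18 to 0.71 CPM in FF_sham, 61.6 CPM in KO_sham 2 and 0.47 to 1.06 CPM in the other knockouts. The chemokine Cxcl2 held 53.2 CPM in KO_sham 2 and at most 0.36 CPM in the other 7. Il6 was at 0 in all 4 controls, 41.0 CPM in KO_sham 2 and at most 0.10 CPM in the others. Socs3, a feedback inhibitor of cytokine signalling, held 250.4 CPM there, against 3.73 to 5.29 CPM in FF_sham and 6.48 to 7.18 CPM in the other knockouts. Thbs1, thrombospondin 1, held 92.1 CPM there, against 4.34 to 7.63 CPM in FF_sham and 9.08 to 15.2 CPM in the other knockouts. In Socs3 and Thbs1 the other 3 knockouts also lay above all controls. Leaving out this 1 library took the median of 13 immediate early genes from 2.46 to −0.01, of 10 adhesion and acute inflammation genes from 2.26 to 0.56, and of 24 cytokines and chemokines from 2.59 to 0.79.

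Their counts with an unadjusted p under 0.05 went from 8 to 0, from 4 to 0 and from 14 to 5. Among 10 heat shock genes the count went from 3 to 0. Of the cytokines, Ccl12, a ligand of Ccr2, and Il1rn, the interleukin 1 receptor antagonist, lay above the controls in all 4 knockouts. Their differences were 1.80 (SE 0.50) and 2.96 (SE 0.89), and 1.34 and 2.66 without KO_sham 2. Ccl8, a monocyte chemoattractant, did not rest on KO_sham 2. It held 0.43, 2.13, 2.28 and 0.74 CPM in FF_sham and 13.1, 2.01, 4.21 and 3.45 CPM in KO_sham. Its difference was 2.30 without KO_sham 2 (SE 0.55, unadjusted p 0.0009) and 1.45 without KO_sham 1 as well.

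**Figure D3:**
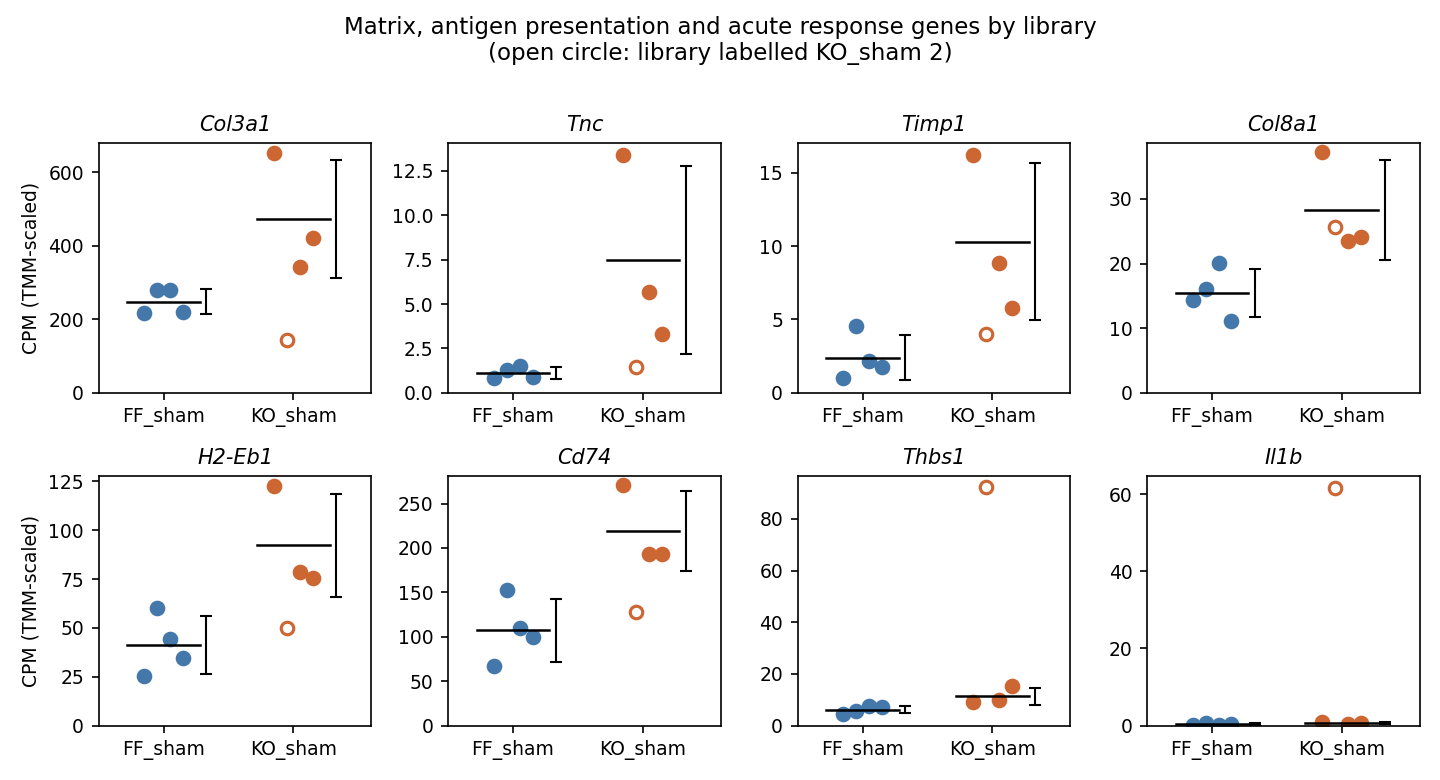
Levels of 4 matrix genes (top), 2 antigen presentation genes and 2 genes high in KO_sham 2 (bottom) in each sham library (y axis, CPM from 0, TMM-scaled; x axis, group), with symbols, means and SDs as in the plot of carnitine shuttle genes. The open circle (KO_sham 2) lies in or below the control range in Col3a1, Tnc and Cd74, and far above the other libraries in Thbs1 and Il1b.

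All 16 beta-oxidation enzymes tested had a negative log2 difference in both comparisons, with a median of −0.22 in each. Over all genes tested, 7649 of 15596 were negative with all 4 libraries and 8126 of 15919 without KO_sham 2. Of the 16, 5 had an unadjusted p under 0.05 with all 4 libraries and 3 without KO_sham 2. Hadh, the short-chain 3-hydroxyacyl-CoA dehydrogenase, held 639, 623, 562 and 678 CPM in FF_sham and 554, 496, 516 and 424 CPM in KO_sham, without overlap. The log2 difference was −0.33 (SE 0.10, unadjusted p 0.00595). Acads, the dehydrogenase of short-chain acyl-CoA, held 287, 229, 243 and 278 CPM against 205, 197, 212 and 178 CPM, again without overlap (−0.39, SE 0.15, unadjusted p 0.0181).

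Etfdh, which hands electrons from beta-oxidation to ubiquinone, lay at −0.30 (SE 0.12) and Hadha, a subunit of the trifunctional protein, at −0.24 (SE 0.11), both without overlap. Acaa2, the thiolase of the last step, lay at −0.28 (SE 0.13) and Acadm, the dehydrogenase for medium chains, at −0.21 (SE 0.12), and both overlapped the controls. With the GC offset 15 of the 16 were negative in each comparison. The list median was then −0.23 with all 4 libraries, and 2 of the 16 had an unadjusted p under 0.05 in either comparison. Peroxisomal oxidation genes had 0 of 11 with all 4 libraries (median −0.14) and 1 without KO_sham 2, and fatty acid uptake and activation genes 0 of 14 in both (medians −0.10 and −0.05). With the GC offset and all 4 libraries these counts were 1 and 2, and 1 uptake gene had an unadjusted p under 0.05 without KO_sham 2, all lower. Lpl, which releases fatty acids from lipoproteins, differed by 0.16 (SE 0.27, or 0.09 with the offset) and Cd36, which takes them up, by −0.12 (SE 0.11).

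Of the enzymes around malonyl-CoA, one that makes it and one that breaks it down had an unadjusted p under 0.05 and a lower level. Acacb, acetyl-CoA carboxylase 2, makes malonyl-CoA at the mitochondrion. It held 384, 414, 427 and 489 CPM in FF_sham and 252, 400.5, 286 and 291 CPM in KO_sham, with KO_sham 2 inside the control range. Its difference was −0.48 with all 4 libraries (SE 0.17, unadjusted p 0.0121) and −0.63 without KO_sham 2 (SE 0.16, unadjusted p 0.00167). Mlycd, malonyl-CoA decarboxylase, breaks it down. Its level was 141, 121, 131 and 152 CPM in FF_sham and 111, 102, 109 and 88.3 CPM in KO_sham, and all 4 knockouts lay below (−0.41, SE 0.12, unadjusted p 0.00409). The AMP-activated kinase subunits of the list did not reach an unadjusted p under 0.05, which leaves 2 of 9 members, both lower (1 with the GC offset and without KO_sham 2).

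Among regulators of fatty acid genes, Ppara, the fatty acid sensing nuclear receptor of heart and liver, held 7.88, 10.7, 8.71 and 10.2 CPM in FF_sham and 10.6, 15.9, 13.8 and 13.3 CPM in KO_sham. With all 4 libraries it was the only one of 9 regulators with an unadjusted p under 0.05 and a level above the controls (0.51, SE 0.22), and KO_sham 1 lay inside their range. Rxra, the partner receptor, held 79.2, 84.2, 74.0 and 83.0 CPM against 56.5, 65.9, 62.1 and 60.3 CPM, without overlap (−0.39, SE 0.15). Ppard lay at −0.32 (SE 0.12) and Esrra at −0.21 (SE 0.09), also without overlap.

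Of 11 known target genes of these receptors, 9 had a negative difference with all 4 libraries and 10 without KO_sham 2. Over all genes these were 7649 of 15596 and 8126 of 15919. Pdk4, the starvation-induced pyruvate dehydrogenase kinase, held 124, 447, 472 and 905 CPM in FF_sham and 263, 576, 144 and 216 CPM in KO_sham. This spread covers both groups, and the difference without KO_sham 2 was −1.23 (SE 0.51, unadjusted p 0.0303) and −0.75 when FF_sham 4 was left out too. Acot2, a mitochondrial acyl-CoA thioesterase, lay at −0.39 (SE 0.15), without overlap. Of 11 PPAR targets, 1 had an unadjusted p under 0.05 with all 4 libraries and 2 without KO_sham 2, all lower, and the medians were −0.41 and −0.44.

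In triglyceride turnover, Pnpla2, the first lipase of triglyceride breakdown, held 408, 478, 419 and 480 CPM in FF_sham and 347, 378, 343 and 305 CPM in KO_sham. The groups did not overlap (−0.38, SE 0.15, unadjusted p 0.0241), nor did those of Dgat2, which completes triglyceride synthesis (−0.31, SE 0.12). These were the 2 of 10 with an unadjusted p under 0.05, and with the GC offset 0 of 10 had one with all 4 libraries and 1 without KO_sham 2. In glucose use, Pdk2, a kinase that shuts down pyruvate dehydrogenase, held 536, 430.2, 510 and 535 CPM in FF_sham and 331, 430.0, 378 and 373 CPM in KO_sham. KO_sham 2 and FF_sham 2 were within 1 CPM of each other, and the difference was −0.41 (SE 0.11, unadjusted p 0.00146). Both DESeq2 and voom called it lower in each comparison.

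Pygm, muscle glycogen phosphorylase, lay at −0.27 (SE 0.10), Pfkm, muscle phosphofructokinase, at −0.19 (SE 0.08) and Slc2a4, the insulin-responsive glucose transporter, at −0.20 (SE 0.09), each with the 4 knockouts below the 4 controls. Pfkm shares exon sequence with Senp1 on the opposite strand. Of 27 glucose genes, 5 with all 4 libraries and 4 without KO_sham 2 had an unadjusted p under 0.05, all lower, with medians of −0.13. These counts fell to 3 and 2 with the GC offset, and Pfkm lay at −0.12 with all 4 libraries. All 14 tricarboxylic acid cycle genes had a negative difference (median −0.16), as had 7649 of all 15596 genes. Of the 14, 4 had an unadjusted p under 0.05, Dlst and Cs included. Dlst, a subunit of the 2-oxoglutarate dehydrogenase complex, held 681, 631, 682 and 720.5 CPM against 596, 532, 575 and 571 CPM (−0.26, SE 0.08). Cs, citrate synthase, held 1305, 1231, 1212 and 1348 CPM against 1104, 1108, 1132 and 1050.0 CPM (−0.21, SE 0.09). In both genes the 4 knockouts lay below the 4 controls.

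Of the 22 nuclear-encoded respiratory chain genes, all had a negative difference (median −0.14), as had 7649 of all 15596 genes. With the GC offset 20 of the 22 were negative with all 4 libraries and 19 without KO_sham 2. With all 4 libraries 1 of them, Uqcrc1 of complex III, had an unadjusted p under 0.05 (−0.29, SE 0.13). Among 13 mitochondrially encoded genes only mt-Nd4l had one, at 65.6, 39.4, 49.9 and 76.7 CPM in FF_sham and 13.05, 21.5, 32.1 and 23.1 CPM in KO_sham (−1.37, SE 0.53). It overlaps mt-Nd4 on the same strand, so its reads may be split between them. In branched-chain amino acid breakdown, Bckdhb, the beta subunit of the E1 enzyme, held 62.8, 56.2, 50.8 and 61.1 CPM in FF_sham and 43.4, 56.8, 41.9 and 37.2 CPM in KO_sham. Its difference was −0.50 without KO_sham 2 (SE 0.10, unadjusted p 0.000245), and that of the alpha subunit Bckdha −0.49 (SE 0.14). With all 4 libraries Bckdhb lay at −0.37 and Bckdha at −0.38. The list had 2 of 11 genes with an unadjusted p under 0.05 with all 4 libraries and 5 without KO_sham 2, all lower.

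**Figure D4:**
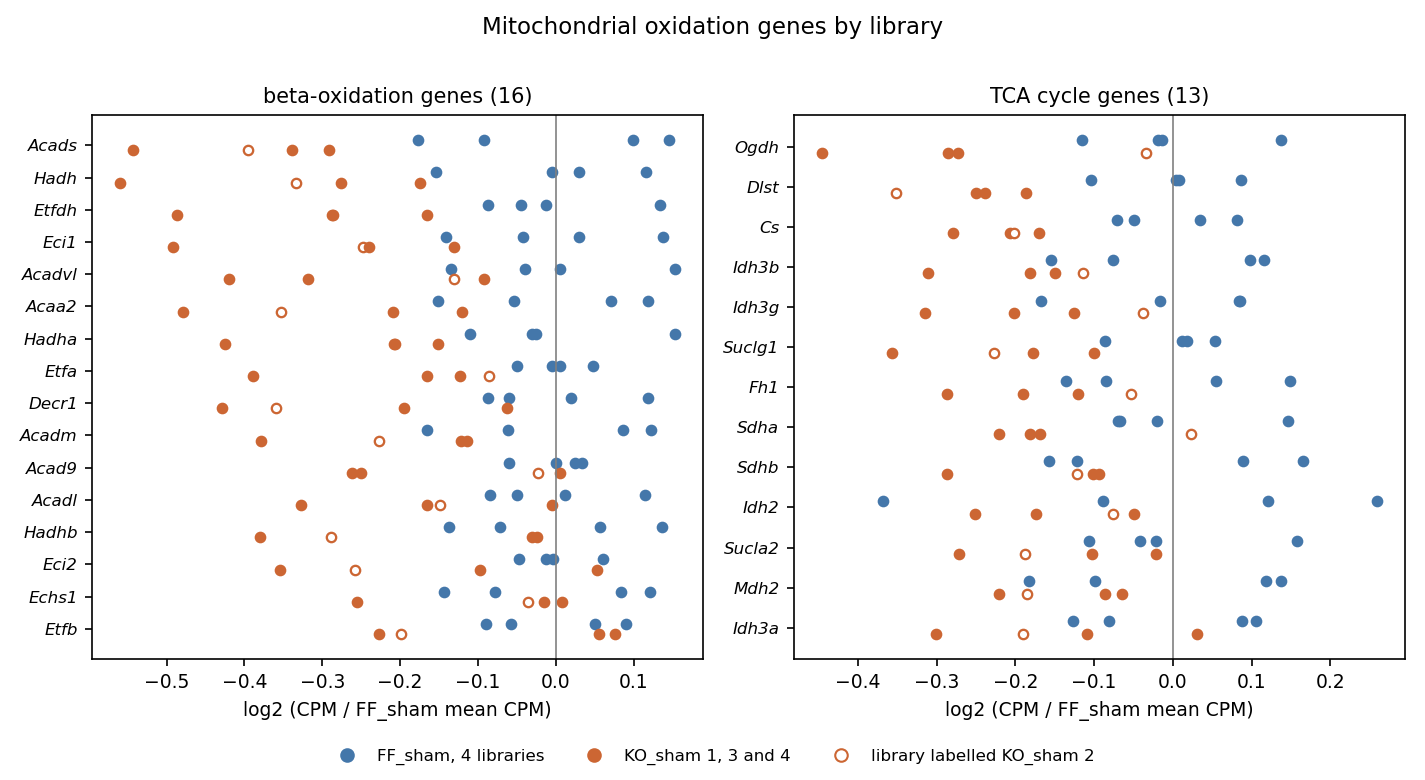
Levels of 16 beta-oxidation and 13 tricarboxylic acid (TCA) cycle genes in each sham library as the log2 ratio to the FF_sham mean (x axis), with 1 row per gene ordered by the difference without KO_sham 2, and circles for libraries as in the key. Most KO_sham circles lie left of 0, and the groups are apart in few rows, among them Hadh, Acads, Dlst and Cs.

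The genes with the smallest p among those below the controls had varied functions. Dcakd, which carries a dephospho-CoA kinase domain, had the smallest p of all with 4 libraries. It held 51.8, 37.5, 37.7 and 41.4 CPM in FF_sham and 29.2, 28.6, 29.4 and 25.6 CPM in KO_sham (−0.58, SE 0.11, unadjusted p 0.0001, adjusted p 0.798 in edgeR). Vars2 and Aars2 charge mitochondrial tRNAs with valine and alanine, and lay at −0.40 (SE 0.09) and −0.32 (SE 0.09). Polrmt, the mitochondrial RNA polymerase, lay at −0.43 (SE 0.12), and Dele1, which relays mitochondrial stress to the cytosol, at −0.36 (SE 0.10). Fdft1, squalene synthase of sterol synthesis, held 46.7, 48.8, 47.4 and 55.0 CPM against 33.8, 45.8, 33.8 and 32.4 CPM, and reached −0.57 without KO_sham 2 (SE 0.10, unadjusted p 5.1e-05).

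The others of this kind were Med16, a Mediator subunit (−0.36), Ruvbl2, an ATPase of chromatin remodelling complexes (−0.33), the potassium channel gene Kcnn1 (−0.35), the nuclear import receptor Ipo13 (−0.36) and the corepressor Hr (−0.56). By the rule that named them, all of these genes had 4 knockout libraries below 4 controls, as 3.55% of all genes did. Their transcripts ran from 51.0% GC (Dele1) to 61.6% (Hr), and most moved towards 0 with the GC offset. Dcakd went to −0.47, Med16 from −0.36 to −0.24, Polrmt from −0.43 to −0.30 and Aars2 from −0.32 to −0.19, while Fdft1 stayed at −0.43 and Dele1 at −0.34. Dcakd, Vars2, Ruvbl2, Kcnn1, Fdft1 and Dele1 share exon sequence with a gene on the opposite strand.

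Without KO_sham 2, further genes joined from below. Dmd, which encodes dystrophin, the link between the sarcomere's cytoskeleton and the membrane, held 49.4, 54.1, 52.5 and 45.5 CPM in FF_sham and 24.2, 70.4, 29.8 and 35.6 CPM in KO_sham. KO_sham 2 was the highest library and the other 3 the lowest, and the difference went from −0.33 to −0.76 (SE 0.14, unadjusted p 7.5e-05) without it. Immp2l, an inner membrane peptidase of the mitochondrion, lay at −0.87 (SE 0.19) and Amy1, salivary-type amylase, at −1.15 (SE 0.25), the latter sharing exons with Rnpc3. All 3 of these genes had 3 knockout libraries below the 4 controls, as 6.36% of all genes did. From above, 6 genes without a macrophage label were named with all 4 libraries. They were Nktr (0.59, or 0.45 without KO_sham 2), Dock10 (0.66 in both), Entpd1 (0.49, or 0.38), Abcg1 (0.54, or 0.39), Acap2 (0.38, or 0.37) and Trps1 (0.58, or 0.55). Entpd1 encodes CD39, an enzyme that degrades extracellular ATP, Abcg1 a cholesterol exporter, and Dock10 a guanine exchange factor of immune cells. Ctsc, a lysosomal protease, and F13a1, a coagulation factor subunit that macrophages make, lay at 0.54 (SE 0.14) and 0.52 (SE 0.15).

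The matrix list above aside, lists that describe the strained heart held few genes with a small p. None of 14 sarcomere and calcium handling genes had an unadjusted p under 0.05 in either comparison (medians −0.08 and −0.04). The cardiac myosin heavy chain Myh6 differed by −0.11 (SE 0.17, or −0.02 with the GC offset) and the calcium pump Atp2a2 by −0.11 (SE 0.24). Among 10 natriuretic peptide, fetal isoform and stretch genes, only Tnni1, slow skeletal troponin I, had one. It held 0.24, 0.44, 0.17 and 0.12 CPM in FF_sham and 0.65, 0.43, 0.31 and 2.04 CPM in KO_sham, so KO_sham 4 decided its difference of 1.98 without KO_sham 2, which was 0.96 without KO_sham 4 as well. Of 14 integrated stress response and serine pathway genes 1 was lower with all 4 libraries, Shmt2, a mitochondrial folate enzyme (−0.28, SE 0.09), and without KO_sham 2 it was joined by 1 higher. Shmt2 lay at −0.19 with the GC offset, and then 0 were lower in either comparison. There were 0 of 13 antioxidant genes, 0 of 13 lipid synthesis genes and 1 of 16 clock genes with all 4 libraries, the repressor Nr1d1 (−0.36, SE 0.15). The GC offset made these 1 antioxidant gene, higher, and 0 clock genes. No marker list of heart muscle (8 tested), endothelium (8), smooth muscle and pericytes (7), mast cells (4), atrium (5), fat (5), red cells (5) or mesothelium (4) held a gene with an unadjusted p under 0.05, and neither did the 2 Schwann cell genes tested.

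**Figure D5:**
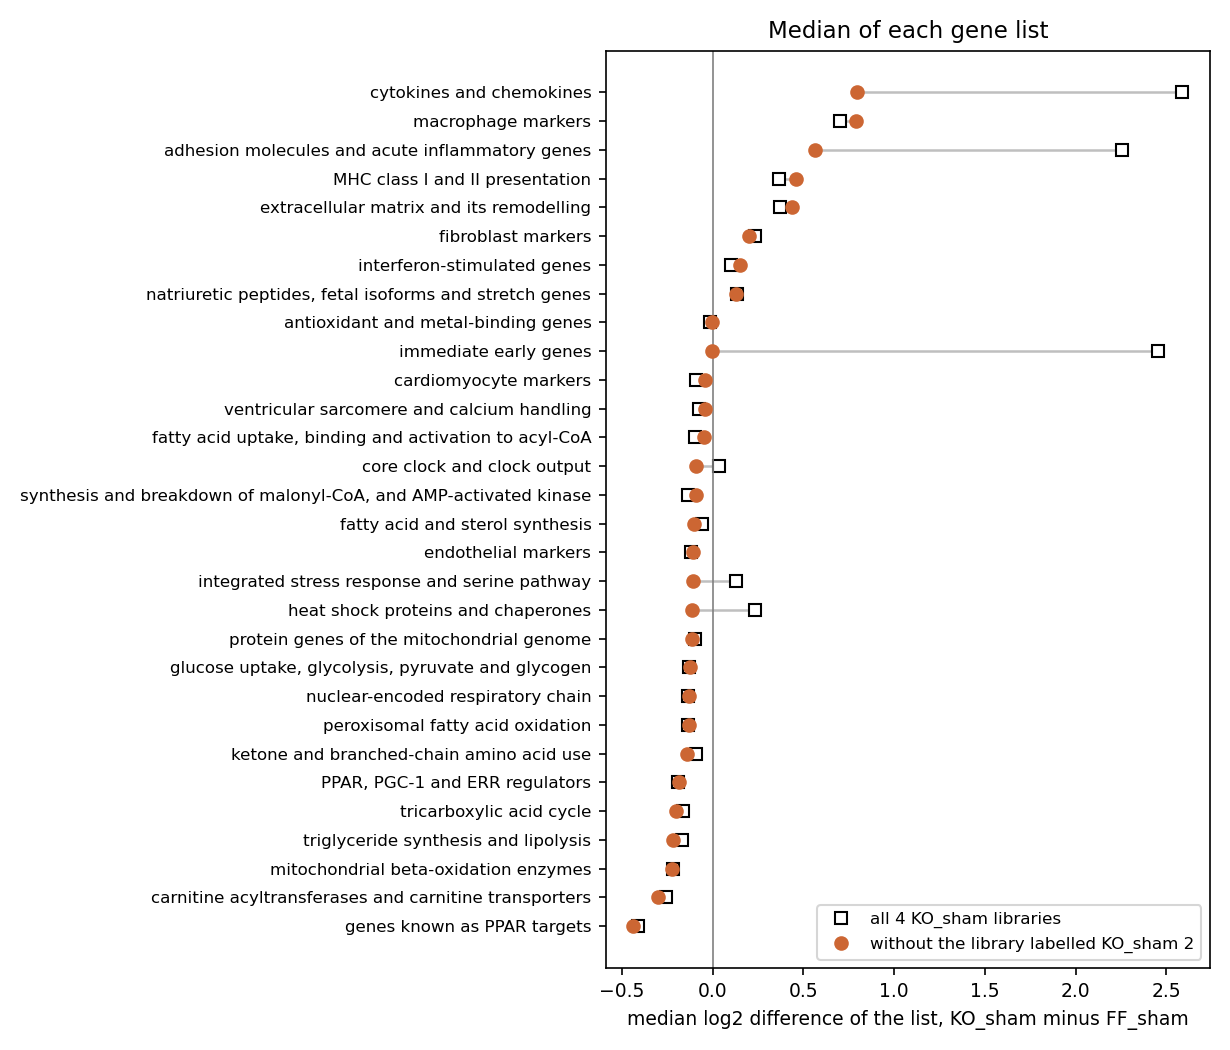
Median log2 difference between KO_sham and FF_sham (x axis) over the tested genes of 26 pathway lists and 4 cell marker lists (y axis), with squares for all 4 KO_sham libraries and circles for 3, without the library labelled KO_sham 2. Immediate early genes go from 2.46 to −0.01 without it and macrophage markers from 0.70 to 0.79, against medians of 0.004 and −0.005 over all genes tested.

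The same genes were read in the loaded hearts, where KO_TAC was set against FF_TAC. This comparison shares no library with the sham one, but its groups differ in other ways. Haemoglobin summed to 3.89 to 51.1 CPM in all 4 KO_TAC libraries, and to 1.74 to 534 CPM in FF_TAC. The mean log2 CPM of the immediate early genes was 6.99 to 8.68 in KO_TAC. It was 3.54, 8.08, 8.40 and 3.94 in FF_TAC 1 to 4, and 8.23 in KO_sham 2. Mitochondrial transcripts made up 12.1% to 18.7% of counts in KO_TAC and 20.9% to 22.6% in FF_TAC. How far these differences between libraries entered the results below was not tested. In edgeR 1175 genes (7.53%) were called higher and 1060 (6.8%) lower in KO_TAC. Of the 503 genes with all 4 KO_sham libraries above all controls (3.23%), 375 were higher in KO_TAC than in FF_TAC, of which 108 were called, and 9 were called lower. Of the 553 with all below, 435 were lower in KO_TAC, of which 138 were called, and 9 were called higher. Over all 15596 genes, 8322 were higher and 7274 lower.

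Of the macrophage genes, C1qa was called higher in KO_TAC (log2 difference 0.86, adjusted p 0.00795 in edgeR), as were Ms4a7 (1.58, adjusted p 0.00712), C1qc (0.64, adjusted p 0.0134), Cd68 (0.76, adjusted p 0.0154) and Lyz2 (0.77, adjusted p 0.0309). Mrc1 was not (0.30, adjusted p 0.254). Of the 14 macrophage markers, a list without Ms4a7, 13 were higher and 1 lower in KO_TAC. Of them, 5 were called higher (7.53% of all genes). Beta-oxidation enzymes were called lower for 12 of 16 (6.8% of all genes), with a median of −0.59 beside −0.22 in the sham hearts. Ppara differed in sign, at 0.51 in the sham hearts and −1.23 in the loaded ones, and the test of that difference missed the threshold with an adjusted p of 0.0647 in edgeR's interaction term. None of the genes named here passed it, and 7 of all genes tested did (0.0449%).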

How the data were processed

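The authors deposited whole-number counts per gene for 30 libraries, read here as raw counts from their values. Per the labels' protocols, poly(A) libraries were made with a strand-marking kit. Per the submitters' processing notes, GRCm38, HISAT2 2.1.0, featureCounts and Subread 1.5.1 were used. The strand setting and annotation release are not given in the sources used here. Of 55487 identifiers 55141 were matched to a symbol in GENCODE M21, and the rest held 0.0192% of counts.

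All 16 floxed-cohort libraries were fitted with 1 mean per group by edgeR 4.0.16 (TMM, filterByExpr, quasi-likelihood F test, Benjamini-Hochberg adjustment over all genes tested) in R 4.3.3, and again as 15 without KO_sham 2. A gene was called at an adjusted p under 0.05. CPM values are given with the SD. The scripts were tested on simulated data. PCR copies are not independent, so errors from counts cover counting only. Alternatives were DESeq2 1.42.0, limma 3.58.1 voom, other scaling and filters, sham libraries only, a replicate block and leaving out each library. A GC offset (20 bins) and edgeR's robust spread were chosen after seeing the data.

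Genes were named by a rule: Cpt1a and the carnitine shuttle, the 12 smallest unadjusted p in each direction with all 4 KO_sham libraries (at least 5 CPM in the higher group, no overlap), the 8 smallest in each direction without KO_sham 2, and up to 4 members of each list. Members of marker and stress lists are given mostly as sums and counts. Outside the rule, Tesmin, Acadm, Hadha, C1qb, Fcgr1, Lyve1, Timd4, Cd163, Ccr2, Col8a1, Thbs1, Il1b, Il6 and Cxcl2 were chosen after their values were seen. The groups compared, and the lists, were chosen with earlier results of these data known. One gene of a list is counted there but not reported by itself here.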

Additional observations from a re-analysis of the deposited data

Results flagged for a closer look

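In each group of 4 libraries, the highest or lowest value was examined where its gap to the nearest other value took up more of the group's range than Dixon's 95% critical value. Of 235 groups of 4 examined, 22 values (9.36%) were that far out. Chance alone gives about 1 in 20, but several of the genes examined were chosen for their values in KO_sham 2, so the share is a description only. The library labelled KO_sham 2 held 12 of the 22.

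Cpt1a was far above the other knockouts in KO_sham 2, at 46.3 CPM against 23.7 CPM in the nearest. In the same library Fdft1 (45.8 CPM), Amy1 (19.0 CPM), Ppard (32.3 CPM) and Pfkm (1164 CPM) also lay far above the rest of the knockouts. Of the acute response genes, Fos stood at 611 CPM, Socs3 at 250.4 CPM, Thbs1 at 92.1 CPM, Il1b at 61.6 CPM, Cxcl2 at 53.2 CPM and Il6 at 41.0 CPM in that library. The immediate early genes summed to 4913 CPM there, against 305 CPM in the nearest knockout.

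Among the other knockouts, Col8a1 was high (37.3 CPM) and Dele1 low (111.6 CPM) in KO_sham 1, and fat markers summed to 30.2 CPM in KO_sham 4. Of the controls, FF_sham 2 was far out 4 times. Its fat markers summed to 287.7 CPM, its atrial markers to 5418 CPM, and Ppard (33.4 CPM) and Shmt2 (43.1 CPM) were low. FF_sham 4 was high in Acot2 (115.7 CPM) and low in Ccl12 (0.18 CPM), and FF_sham 1 was low in Ms4a7 (1.41 CPM).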

How the results depend on the processing

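With all 4 KO_sham libraries edgeR called 0 genes, and so it did with other scaling or filters, sham libraries alone, the GC offset, the robust spread and each library left out (range 0 to 0). DESeq2 called 15 and voom 30. Without KO_sham 2, DESeq2 called 38, voom 238, and the sham libraries alone with the robust spread 1. That gene was Cpt1a (−1.02, and −1.07 in voom), whose level had decided the omission, so its values there are no test. Leaving out each library moved Cpt1a from −1.03 to −0.56 with all 4 and from −1.10 to −0.94 without KO_sham 2.

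Genes at an unadjusted p under 0.05, with all 4 and without KO_sham 2, numbered 1667 and 1913 with sham libraries alone, 2251 and 2380 in voom, and ran from 511 to 857 and from 373 to 789 with each library left out. With a mean of at least 5 CPM they were 594 and 488, with the GC offset 616 and 586, and with no filter 1101 and 955. The sham groups share replicate numbers. Deviations of same-numbered libraries correlated at 0.24, 0.23, 0.01 and −0.20, and those of differently numbered ones at −0.45 to 0.37. So few pairs cannot decide whether a number marks a shared litter or day. With a replicate block Cpt1a was −0.75 and −1.02, 0 genes were called, and 1631 and 2026 had an unadjusted p under 0.05.

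Some small differences changed sign. With the GC offset Cpt1c reached 0.000116 with all 4 libraries and 0.0273 without KO_sham 2, and Crot −0.0475 with all 4. With a replicate block Lyve1 reached 0.0215 without KO_sham 2. With each library left out, Cpt1c ran from −0.25 to 0.0121, Crot from −0.0551 to 0.0909, Slc22a4 from −0.00838 to 0.13 and Lyve1 from −0.0457 to 0.31 with all 4. Without KO_sham 2, Cpt1c ran from −0.27 to 0.106, Lyve1 from −0.13 to 0.116 and Fos from −0.167 to 0.71. Genes of a few CPM, such as Tesmin and Il1rn, rest on few counts.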
